A study of Homo sapiens with 2 samples.

Results

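The metallothioneins were taken as 10 named genes: MT3, MT2A, MT1E, MT1M, MT1A, MT1B, MT1F, MT1G, MT1H and MT1X. Every gene probe carrying one of these names was used, which gave 12 probes of the 34127 gene probes on the array. MT1H and MT1X had 2 probes each and the other genes had 1 probe. The samples were MKN74 and MKN45, established gastric cancer cell lines grown in RPMI1640 medium with 10% FBS. Each line was electroporated with 50 nM SET7/9 siRNA or negative control siRNA and total RNA was collected 48 h later. SET7/9, encoded by SETD7, is a lysine methyltransferase that acts on histone H3 and on other proteins. The 2 RNAs of a line were labelled with Cy5 (SET7/9 siRNA) and Cy3 (negative control siRNA) and hybridised together on 1 two-colour array per line, with no dye swap. A transfection, a labelling or a dye effect therefore cannot be told apart from knockdown within a line, and no value has a replicate.

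Metallothioneins are small cysteine-rich proteins that hold zinc and copper in metal-thiolate clusters and buffer cells against cadmium and oxidants. Their genes lie side by side on the long arm of chromosome 16. MT2A and most MT1 genes are switched on by the zinc-sensing transcription factor MTF1, which binds metal response elements in their promoters, and several also respond to glucocorticoids. MT3 is known chiefly from the nervous system and MT4 from stratified squamous epithelium. The MT1 genes arose by duplication and their coding sequences are very alike, so the sequence that each probe carries bears on what its signal measures.

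The probes for MT1A and the coding probes of MT1H and MT1X are shown whole, because they carried the longest runs of sequence shared within the family. The capitals mark the 13 bases present in all 3 probes.
MT1A: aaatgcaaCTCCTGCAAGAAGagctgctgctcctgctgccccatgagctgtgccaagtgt
MT1H coding: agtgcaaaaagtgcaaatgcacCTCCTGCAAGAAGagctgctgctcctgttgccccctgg
MT1X coding: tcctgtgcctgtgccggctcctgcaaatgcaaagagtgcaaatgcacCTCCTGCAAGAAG
The MT1A and MT1H coding probes shared an unbroken run of 27 bases and were identical at 91.3% of the 46 bases over which they overlapped. The MT1H and MT1X coding probes shared a run of 26 bases and were identical at 94.3% of 35 overlapping bases. These were the only member probes that shared a run of 20 or more bases with any other probe of the array. In the file's GRCh37 coordinates MT1A lay at chr16:56673205-56673808 and MT1H coding at chr16:56704448-56704833, spans of 604 and 386 bases, so both 60-base probes crossed a splice junction. MT1X coding lay at chr16:56717082-56717141. No GRCh37 gene annotation was used here, so exon numbers are not given.

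The downstream probes of MT1X and MT1H and the MT1F probe line up without gaps, and their first 30 bases are shown to let the paralogs be told apart. Capitals mark bases that differ from MT1X.
MT1X downstream: tgccaggacagctgtgctctcagatgtaaa
MT1F: tgccaggacaAcCTtTctcCcagatgtaaa
MT1H downstream: tgTcGggacagcCCtgctGtcagatgAaaa
Over all 60 bases MT1F matched the MT1X downstream probe at 49 positions and MT1H downstream matched it at 44. They lay at chr16:56717962-56718021 for MT1X, chr16:56693077-56693136 for MT1F and chr16:56704902-56704961 for MT1H.

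MT2A was the member that passed 1.5-fold after knockdown and MT1M had its higher level in MKN45, against most of the family, so the last 30 bases of both probes are shown. Neither probe held a run of 20 bases found in another probe of the array.
MT2A: ctttttctatgaaataatgtgaatgataat
MT1M: gcatttctttttatgttaaatatgtgagtg
MT2A lay at chr16:56643332-56643391 and MT1M at chr16:56667810-56667869. The remaining probes were MT3 at chr16:56624933-56624991, MT1E at chr16:56660853-56660912, MT1B at chr16:56686948-56687007 and MT1G at chr16:56700693-56700752. MT1E and MT1B shared a run of 17 bases and were identical at 83.1% of 59 overlapping bases. Both were also like the probe of MT1L, a further entry of the family. MT1B was identical to it at 88.4% of 43 overlapping bases and MT1E at 90.5% of 42.

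Knockdown was checked at SETD7 first. At the first of its 2 probes the ratio of SET7/9 siRNA over control stood at -2.03 (log2) in the MKN74 array and -1.95 in the MKN45 array, with an error of 0.28 each. The other SETD7 probe gave 0.24 ± 0.22 for MKN74 and -0.23 ± 0.21 for MKN45. These errors, and those given below for ratios, are the scanner software's error model for a spot and hold no biological variation. Over probes printed several times, the pooled SD of the log2 ratio between spots was 0.083 in MKN74 and 0.091 in MKN45. All 12 metallothionein probes were printed once, and none was saturated or an outlier. Epithelial markers were well above background in the control channel for 8 of 8 genes in both lines and gastric epithelial markers for 4 of 6 in MKN74 and 5 of 6 in MKN45. Markers of fibroblasts were well above background for 1 and 2 of 6 genes, of leukocytes for 1 and 2 of 4 and of endothelium for 1 and 2 of 3. Gastric epithelial markers had a median control level 3.59 (log2) higher in MKN45 over 8 compared probes. Of these, 6 were at least 2-fold higher, against 28.3% of all compared probes, and 1 at least 2-fold lower, against 17.1%. Some values rest on a dim channel. Probes of MUC1 (Cy3 13.6), MUC5AC (9.7) and TFF2 (4.23) were not well above background in MKN74, nor was the lower PGC probe (3.15) in MKN45. TFF1 and the other compared probes of MUC1 and MUC5AC, also higher in MKN45, were well above background on both arrays. Of all marker probes measured in both channels, 1 passed 1.5-fold after knockdown. It was for PGC, the gastric proenzyme pepsinogen C, at -0.79 ± 0.37 in MKN74 and -0.65 ± 0.38 in MKN45. Its control signals were dim, at 28.7 and 23.5. With normexp background correction and loess normalization it gave -0.11 and -0.12. The second PGC probe, measured in both channels in MKN74, gave -0.01 ± 0.38 there. Marker probes passing 1.5-fold through 1 channel alone were CLDN4 (0.98) and TFF2 (1.32) in MKN74, and the second PGC probe (1.76), CD3E (0.62), PTPRC (1.36) and PECAM1 (-1.28) in MKN45. Of all probes well above background in at least 1 channel, 3.78% were at least 1.5-fold higher and 1.76% lower in MKN74. In MKN45 the shares were 4.81% and 1.97%.

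The control channel showed the widest contrast in the family. Processed signals, which are background-corrected and dye-normalized brightness values, were higher in MKN74 at 8 of the 12 metallothionein probes by 6.55-fold to 30.3-fold after scaling each array to its 75th percentile. MT1M and the downstream MT1H probe went the other way, MT3 differed by less than 1.5-fold, and MT1G was too dim for comparison. For MT2A, the most widely expressed metallothionein in human tissues, the Cy3 signal was 86078 in MKN74 and 2576 in MKN45, and the scaled level was 27.3-fold lower in MKN45. In the SET7/9 siRNA channel the MT2A signals were 116720 and 4110, a 23.2-fold difference.

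Among the MT1 genes, which act as metal-inducible zinc and copper buffers, MT1B had the largest difference. Its control signal was 25097 in MKN74 and 675 in MKN45, which was 30.3-fold lower in MKN45. MT1H coding had 22752 in MKN74 and 693 in MKN45, 26.8-fold lower in MKN45. The MT1X coding probe had 24825 in MKN74 and 909 in MKN45, 22.3-fold lower in MKN45. All of these probes therefore had a level in MKN74 far above the level of the same probe in MKN45.

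MT1E followed with 12850 in MKN74 and 778 in MKN45, 13.5-fold lower in MKN45. The downstream MT1X probe gave 5158 and 371, 11.3-fold lower. Both MT1X probes thus went the same way, by different amounts. MT1F had 2993 in MKN74 and 342 in MKN45, 7.15-fold lower. MT1A, whose probe shared 27 bases with MT1H coding, had 38306 and 4769, 6.55-fold lower. The SD of such a difference between the arrays, from repeated spots, was 0.13 on the log2 scale and that between the differences of 2 probes was 0.18. The contrasts of MT1B, MT2A and MT1H coding (log2 differences of -4.92, -4.77 and -4.74) lay within that spread of each other, as did those of MT1F and MT1A (-2.84 and -2.71). This spread covers spots of 1 array and no biological variation.

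**Figure D1:**
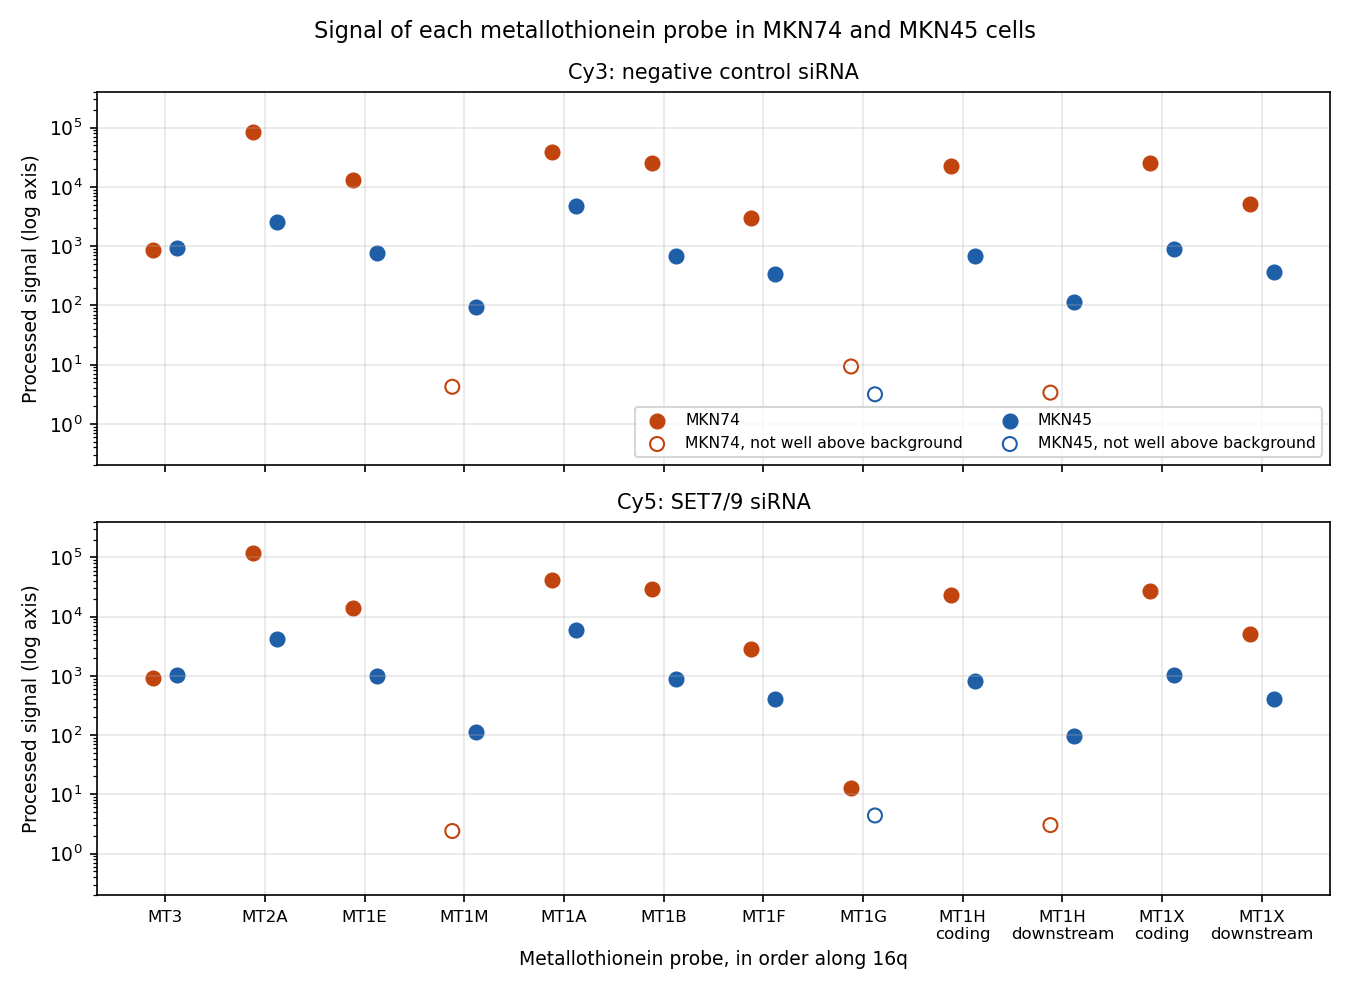
Processed signal (log axis) of the 12 metallothionein probes in order along the chromosome, with the control channel above and the SET7/9 siRNA channel below; each point is 1 spot on 1 array and open circles were not well above background. In both channels MKN74 lies above MKN45 at MT2A, MT1E, MT1A, MT1B, MT1F, MT1H coding and both MT1X probes, and below it at MT1M and MT1H downstream.

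MT1M was not well above background in MKN74, where its Cy3 signal was 4.22, and had 94.3 in MKN45. Against the dimmest signals well above background in MKN74, after the arrays were put on a common scale, this was at least 3.98-fold higher in MKN45. In the SET7/9 siRNA channel the MT1M signals were 2.4 and 111 and the bound was 8.05-fold.

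The downstream MT1H probe had 3.36 in MKN74, not well above background, and 112 in MKN45, at least 4.72-fold higher in MKN45. In Cy5 the bound was 7.04-fold. The MT1H probes thus disagreed in direction between the lines, with the coding probe 26.8-fold lower in MKN45 and the downstream probe higher. The coding probe was the one with shared runs of 27 and 26 bases to the MT1A and MT1X probes, whose signals were also higher in MKN74. The part of that shared sequence in the coding signal was not tested.

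MT3 was the member with the smallest difference, with 849 in MKN74 and 926 in MKN45, a log2 difference of 0.42 beside a median of 0.26 over all compared probes. MT1G had Cy3 signals of 9.28 and 3.15, not well above background in either line. Its Cy5 signal was 12.8 in MKN74, well above background, and 4.39 in MKN45, not well above background.

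In all, 11 member probes could be compared in the control channel and 8 of them were at least 2-fold lower in MKN45, against 17.1% of the 21610 probes compared on the array. At least 8-fold lower in MKN45 were 6 of the 11 members, against 3.36% of all probes; this second threshold was chosen after the values were seen. At least 2-fold higher in MKN45 were 2 of the 11, against 28.3% of all probes. The median difference over the members was -3.50 on the log2 scale, and that over all compared probes 0.26. In the SET7/9 siRNA channel 9 of 12 member probes were at least 2-fold lower in MKN45 against 16.5% of all probes, and 2 were at least 2-fold higher against 29.8%. Each line was 1 culture on 1 array, so these counts describe the 2 RNA pairs and carry no test. Several of these probes share sequence and cannot be counted as independent genes.

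**Figure D2:**
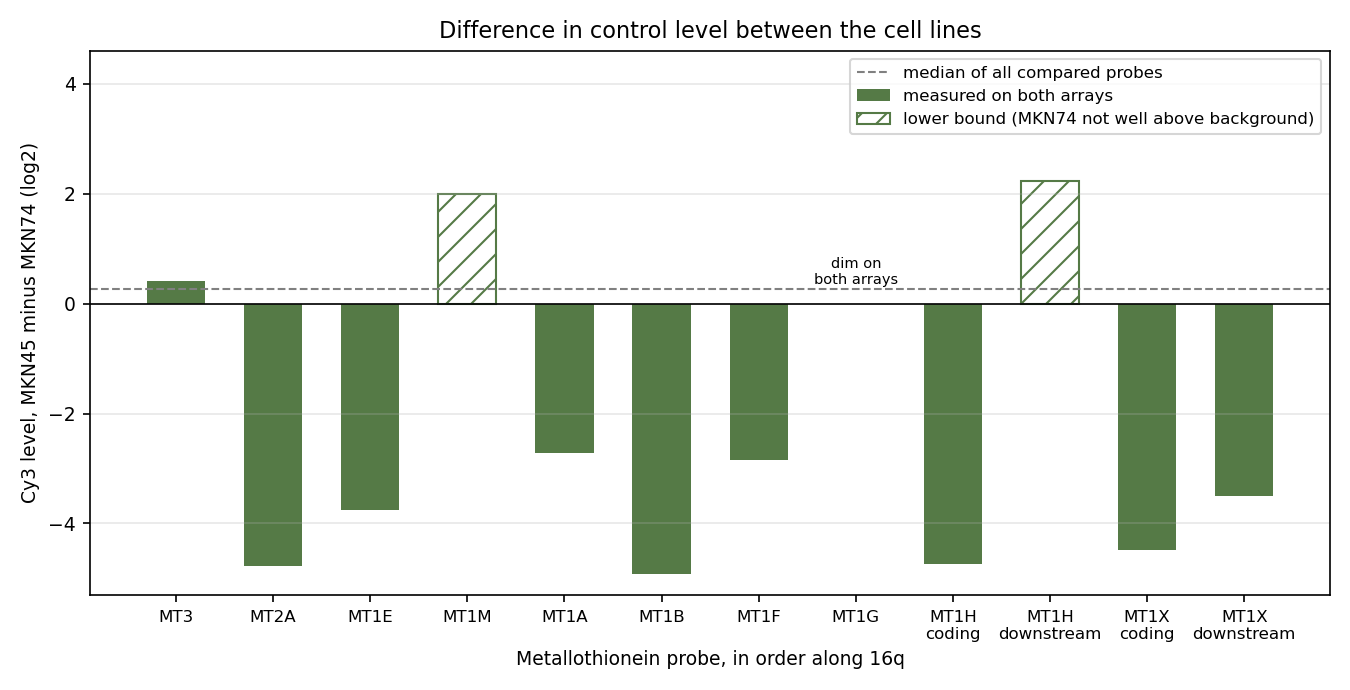
Difference in scaled control level, MKN45 minus MKN74 (log2), for each metallothionein probe; solid bars were measured on both arrays, hatched bars are lower bounds and the dashed line is the median of all compared probes (0.26). Bars reach from -2.71 at MT1A to -4.92 at MT1B on the lower side, while MT1M, MT1H downstream and MT3 lie above 0.

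The other probes described as metallothionein entries were 10 in number and were examined beside the members. MT1L, a metallothionein gene or pseudogene whose probe shared 19-base runs with MT1E and with MT1F, had a control signal of 31380 in MKN74 and 713 in MKN45, 35.9-fold lower in MKN45. Its probe was also identical to the MT1B probe at 88.4% of 43 overlapping bases. The part of shared sequence in the MT1B and MT1L signals was not tested. A probe for the MT1C pseudogene, identical to the MT1X coding probe at 86.7% of its 60 bases, had 1206 and 34.5, 28.5-fold lower. The probe for MT1 pseudogene 3 on chromosome 20 had 972 and 276, 2.87-fold lower. MT4 had 3.83 and 6.41 and was not well above background in either channel or line. The same held for a second MT1E transcript (3.82 and 3.49) and for a transcript of the MT1D pseudogene (3.34 and 5.73).

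MT1DP, at 3.75 and 13.7, and MT1IP, at 6.22 and 3.97, were not well above background in Cy3, and each was well above it in Cy5 in MKN45 alone. MTL5 on chromosome 11 encodes tesmin, which carries the family name without being a metallothionein. Its 2 probes were 5.08-fold and 2.12-fold lower in MKN45, with control signals of 309 and 49.6 at the first and 89.9 and 34.6 at the second.

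After SET7/9 knockdown 1 member passed the study's threshold of 1.5-fold (0.58 on the log2 scale) in MKN45 and none did in MKN74. That member was MT2A. Its log2 ratio was 0.67 ± 0.21 in MKN45, a 1.60-fold higher signal after SET7/9 siRNA, from 2576 in the control channel to 4110. In MKN74 it was 0.44 ± 0.21, or 1.36-fold, from 86078 to 116720. MT2A had the highest ratio among members measured in both channels in each line.

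Of the 12 members, 10 probes were kept in MKN74, meaning well above background in at least 1 channel, and 0 of these were at least 1.5-fold higher, against 3.78% of all kept probes. None was at least 1.5-fold lower, against 1.76%. In MKN45 11 were kept, 1 was higher against 4.81% of all kept probes and 0 were lower against 1.97%. These 11 were all well above background in both channels, as were 20281 of the 22830 kept probes. Shares of all kept probes, here and below, therefore include probes with 1 dim channel. The median log2 ratio over the kept members was 0.11 in MKN74, with a range from -0.05 to 0.46, and 0.24 in MKN45, with a range from -0.20 to 0.67. Over all kept probes the medians were 0.01 in both lines. In MKN74 8 of 10 kept members lay above 0, against 51.2% of all kept probes, and in MKN45 10 of 11, against 52.9%. Because several probes share sequence, these directions are not separate observations.

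**Figure D3:**
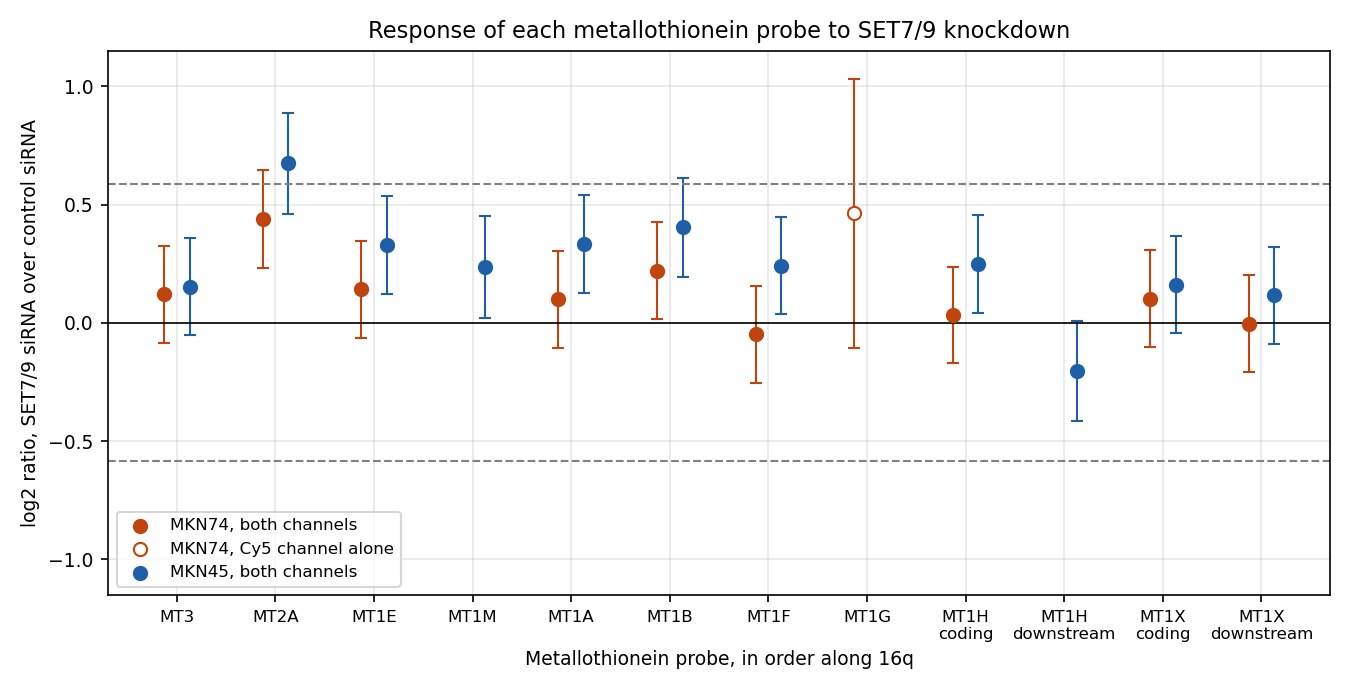
Log2 ratio, SET7/9 siRNA over control siRNA, of each kept metallothionein probe in each line; bars are the error-model error of the spot, the open circle was well above background in Cy5 alone, and dashed lines mark 1.5-fold. MT2A in MKN45 (0.67) lies past the upper line, and the other points lie between -0.20 and 0.46.

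Ratios of the MT1 genes lay mostly within their errors in MKN74 and mostly beyond them in MKN45. The errors ran from 0.20 to 0.22 for member probes measured in both channels. MT1B gave 0.22 ± 0.21 in MKN74 and 0.40 ± 0.21 in MKN45. MT1E gave 0.14 in MKN74 and 0.33 in MKN45, and MT1A gave 0.10 and 0.33. MT1F gave -0.05 and 0.24. MT1H coding gave 0.03 and 0.25. Each of these probes had its higher value in MKN45.

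The MT1X probes gave 0.10 (coding) and -0.003 (downstream) in MKN74 and 0.16 and 0.12 in MKN45, so their ratios differed by less than their errors in both lines. MT3, the brain-enriched member, gave 0.12 and 0.15. MT1M, kept in MKN45 alone, gave 0.24 ± 0.22. MT1H downstream, also kept there alone, gave -0.20 ± 0.21 and was the only kept member below 0 in MKN45. The MT1H probes therefore differed in sign in MKN45, each by about the size of its error. MT1G, kept in MKN74 through Cy5 alone, gave 0.46 with an error of 0.57.

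A log2 ratio above its own error was found at 2 of 10 kept members in MKN74 (MT2A and MT1B), against 13.6% of all kept probes, and at 7 of 11 in MKN45, against 15.6%. The 7 were MT2A, MT1B, MT1A, MT1E, MT1H coding, MT1F and MT1M. The ratio was measured in both channels on both arrays at 9 member probes, of which 7 were above 0 in both lines, against 32.1% of the 17362 probes so measured. All 9 had a higher ratio in MKN45 than in MKN74, against 49.5% of those probes. The differences ran from 0.03 at MT3 to 0.29 at MT1F, with a median of 0.19, and 0 of the 9 exceeded the combined error of the 2 spots. With background-subtracted signals taken before dye normalization and centred on the median, 4 of the 9 were higher in MKN45. On that scale MT2A stood at 0.88 in MKN74, past the 1.5-fold threshold, and at 0.61 in MKN45. The shares of all probes were not computed on that scale, so neither result is set against the array.

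With the 2 lines treated as replicates in limma, 0 of the 9 members tested passed an adjusted p of 0.05, beside 0.0% of 19595 probes. At an unadjusted p under 0.05 there were 2 members and 2569 probes in all. For MT2A the mean log2 ratio was 0.56, with an adjusted p of 0.355 by limma, and it was higher in 2 of 2 lines. For MT1B the mean was 0.31, with an adjusted p of 0.373 by limma. The fit had 1 residual degree of freedom per probe. With normexp background correction and loess normalization limma called 3 of the 9 members, beside 1708 of all 19595 probes. The adjusted p by limma was 0.00125 for MT2A, 0.0225 for MT1B and 0.0242 for MT1H coding. The count of all probes called thus also rose from 0 with that processing.

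Among the other metallothionein entries, MT1L gave a log2 ratio of 0.13 in MKN74 and 0.43 in MKN45, with errors of 0.20 and 0.21. The MT1C pseudogene gave 0.13 and -0.25, and MT1 pseudogene 3 gave 0.09 and -0.05. MTL5 gave 0.13 and 0.26 at its first probe and -0.28 and -0.09 at its second. In MKN45 MT1IP was at 1.77 ± 0.86 and MT1DP at -0.23 ± 0.50, both through Cy5 alone. MT4, the second MT1E transcript and the MT1D pseudogene transcript had no channel well above background, so no ratio is given for them.

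The regulators and partners of the family were then examined. MTF1, the metal-responsive activator of metallothionein genes, had control signals of 487 in MKN74 and 317 in MKN45, 1.25-fold lower in MKN45 after scaling. Its log2 ratio after knockdown was -0.17 ± 0.21 in MKN74 and 0.12 ± 0.21 in MKN45. SLC30A1, a plasma membrane zinc exporter that is also an MTF1 target, had 671 and 663. After knockdown it gave 0.17 ± 0.20 and 0.05 ± 0.20. Neither gene thus had a contrast between the lines of the size seen at MT2A.

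Of 13 probes for zinc sensing and export, 11 were kept in MKN74 and 10 in MKN45. None of the kept probes passed 1.5-fold in either line, with medians of -0.07 in MKN74 and 0.06 in MKN45. Over all kept probes 3.78% were at least 1.5-fold higher and 1.76% lower in MKN74, and 4.81% and 1.97% in MKN45. These shares are the background of every knockdown count of a list below. In the control channel 5 of 10 compared were at least 2-fold lower in MKN45 and 0 were at least 2-fold higher. Over all compared probes these shares were 17.1% and 28.3%, which is also the background of the control level counts of the lists that follow. These 5 are named after their values were seen. SLC30A2, a vesicular zinc transporter, had 255 in MKN74 and 3.82, not well above background, in MKN45. SLC30A7, which loads zinc into the Golgi, was 2.87-fold and 4.62-fold lower at its 2 probes. SLC30A3 and SLC30A4, which fill vesicles with zinc, were 3.58-fold and 2.17-fold lower.

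Zinc importers of the SLC39 family had 16 probes. After knockdown 1 of 13 kept probes was past 1.5-fold in MKN74 and 0 of 14 in MKN45. The 1 was SLC39A2, at 0.86 ± 0.54 with the control channel not well above background. In the control channel 2 of 14 compared were at least 2-fold lower in MKN45 and 6 were at least 2-fold higher, beside the same 17.1% and 28.3%. Named after their values were seen, the lower probes were for SLC39A8 and SLC39A4 and the higher ones for SLC39A2, SLC39A3, SLC39A5, SLC39A6, SLC39A7 and SLC39A14. SLC39A5 had a control signal of 12.6, not well above background, in MKN74 and 937 in MKN45. Copper handling genes, the transporters and chaperones that pass copper to enzymes, had 0 of 14 kept probes past 1.5-fold in MKN74 and 0 of 15 in MKN45. In the control channel 2 of 15 were at least 2-fold lower in MKN45, both of the copper importer SLC31A1. At least 2-fold higher were 5, 4 of the copper pump ATP7A and 1 of ATP7B. The lower and higher probes too were named after their values were seen and stand beside 17.1% and 28.3%. Of the higher ATP7A probes, 1 had 5.11, not well above background, in MKN74 and 28.0 in MKN45. A further ATP7A probe was at a log2 difference of 0.96. The lists of metal transporters therefore had no member past 1.5-fold measured in both channels. At the shares of all kept probes given above, lists of this size would hold few or none, so these counts do not set the lists apart.

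Of the glucocorticoid response genes 1 of 7 kept probes was past 1.5-fold in MKN74 and 0 of 9 in MKN45. SGK1, a kinase gene induced by steroid hormones, gave 0.87 ± 0.22 in MKN74 and 0.23 ± 0.21 in MKN45. The glucocorticoid receptor gene NR3C1 and the other kept members lay within 1.5-fold in both lines. In the control channel 2 of 8 compared were at least 2-fold lower in MKN45, beside 17.1% of all compared probes, and 2 were at least 2-fold higher, beside 28.3%. Named after their values were seen, the lower probes were DUSP1, 3.08-fold, and 1 of 2 for NR3C1, 2.28-fold, and the higher ones were SGK1, with control signals of 554 in MKN74 and 1360 in MKN45, and TSC22D3, with 3.8 (not well above background) and 127.

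For the 16q13 list, genes on both sides of the cluster on chromosome 16, 0 probes measured in both channels passed 1.5-fold in either line. CES1, a liver-type carboxylesterase, passed at different probes measured in 1 channel alone, at -1.03 ± 0.50 in MKN74 and 1.11 ± 0.87 in MKN45. In the control channel 4 of 12 compared were at least 2-fold lower in MKN45 and 0 were at least 2-fold higher, beside 17.1% and 28.3%, with a median of -0.45 against -3.50 for the metallothioneins. The 4, named after their values were seen, were 2 probes of CES1 and 1 each of LPCAT2 and NUDT21. The largest was CES1 at -6.95 (log2), with 699 in MKN74 and 4.62, not well above background, in MKN45. The second NUDT21 probe, at a log2 difference of 0.27, and the second LPCAT2 probe, at 0.10, did not share that direction. The third CES1 probe was at -0.49. Probes of CES1 and LPCAT2 lay between chr16:55584943 and chr16:55860139, far from the cluster. Nearer to it, BBS2, OGFOD1, NUP93, HERPUD1 and GNAO1 had log2 differences of -0.44, -0.07, -0.47, 0.34 and 0.37. NUDT21, also nearer, had -1.01 and 0.27 at its 2 probes.

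**Figure D4:**
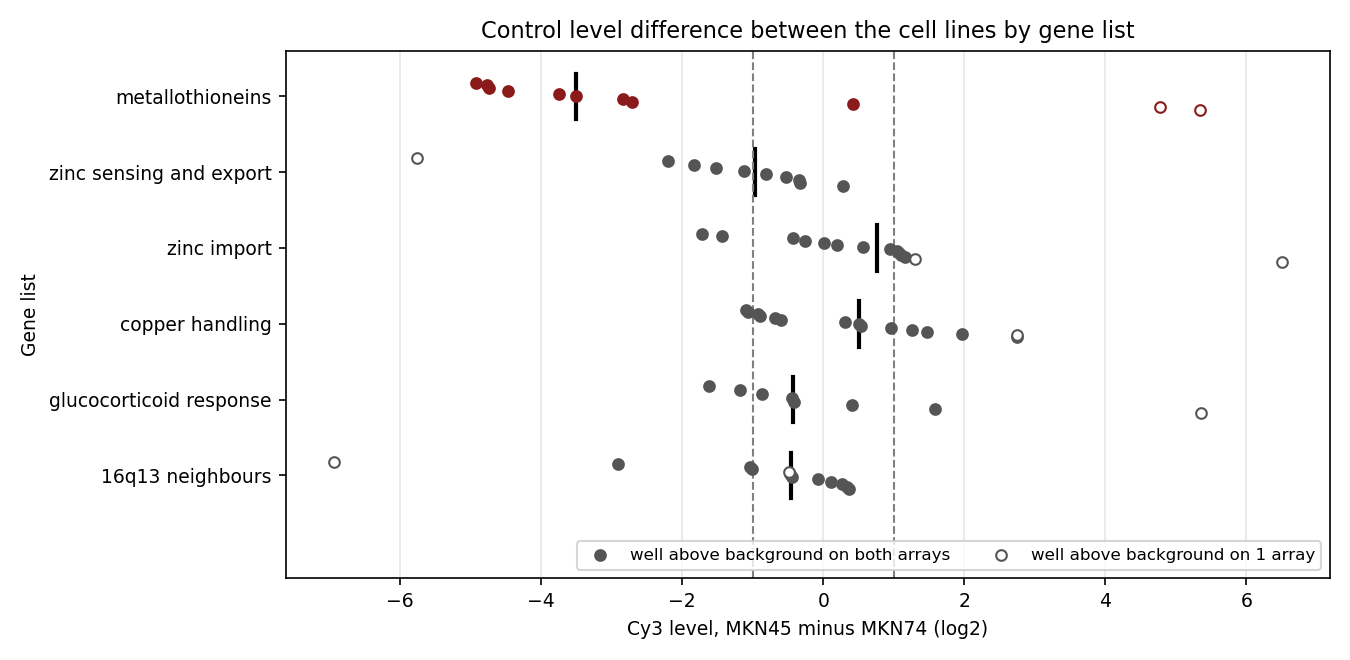
Difference in scaled control level, MKN45 minus MKN74 (log2), of each compared probe by gene list; black bars are list medians, dashed lines mark 2-fold, and open circles were well above background on 1 array, so their position depends on a dim signal. The metallothionein median is -3.50, and the medians of the 5 other lists drawn lie between -0.97 and 0.76; marker lists are not drawn.

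Promoter sequence could be read for 4 of the 10 genes from RefSeq (GRCh38.p14): MT2A, MT1B, MT1H and MT1X. The metal response element core was searched as TGCACNC or TGCGCNC, on both strands, in the 250 bases before each start. MT1H had 8 matches, MT2A had 7, MT1X had 4 and MT1B had 3. MT4 had 3. Of 35116 promoters of the same length, 24.8% held at least 1 match, 0.37% at least 4 and 0.0513% at least 6. The share with at least 3, the count of MT1B and MT4, was not computed. The promoters of MT2A, the member past 1.5-fold, and of MT1X, which has 2 probes, are shown with each match in capitals.
MT2A, chr16:56608334-56608583, plus strand: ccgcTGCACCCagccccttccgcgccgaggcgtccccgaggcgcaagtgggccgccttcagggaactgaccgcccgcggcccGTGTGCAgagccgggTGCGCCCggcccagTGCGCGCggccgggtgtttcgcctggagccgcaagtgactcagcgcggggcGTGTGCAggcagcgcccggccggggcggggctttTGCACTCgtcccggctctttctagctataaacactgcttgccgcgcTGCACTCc
MT1X, chr16:56682220-56682469, plus strand: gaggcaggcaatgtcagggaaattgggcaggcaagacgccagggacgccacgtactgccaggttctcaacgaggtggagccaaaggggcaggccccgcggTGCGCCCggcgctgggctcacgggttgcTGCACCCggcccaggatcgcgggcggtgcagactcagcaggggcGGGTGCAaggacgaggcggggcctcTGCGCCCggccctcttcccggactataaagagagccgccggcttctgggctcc
A match is a description of the letters, and binding of MTF1 was not measured here.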

How the data were processed

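MKN74 and MKN45 were each represented by 1 array. Scanner files were made by the authors with Agilent Feature Extraction 10.7.3.1, per the labels and file headers. The deposited intensity values are processed signals (background-corrected and dye-normalized). The deposited log10 ratio (Cy5 over Cy3), its error and its p-value come from the same software. The deposited table of log2 ratios equals the scanner ratio within 0.0051 at every single-spot probe compared, with array medians of -0.01 and 0, so its scale, centring and direction are those of the scanner files.

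Here log10 ratios were converted to log2, outlier spots were left out, and spots of a probe were averaged. Probes entered when 50% or more of their spots were well above background in Cy3 or in Cy5. Levels were scaled to the 75th percentile, and bounds used limma's Aquantile. Limma 3.58.1 (R 4.3.3) fitted both arrays, with Benjamini-Hochberg adjustment. The code was run on simulated data with changes larger than any member ratio here and the same spread for all probes. That run cannot tell how well the fit finds changes of the size seen here. Normexp used an offset of 50. Python 3.11.15 did the rest. Sequences came from the scanner files and RefSeq. Members and lists were chosen with earlier results of these data known. Named were SETD7, every metallothionein probe, MTF1, SLC30A1, and list genes past 1.5-fold in both channels, or any where 5 or fewer passed. Other list and marker genes were named after their values were seen. Both arrays lay on 1 slide. The number of arrays limits precision. A gene of the 16q13 list is not reported here and was left out of its counts.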

Additional observations from a re-analysis of the deposited data

How the results depend on the processing

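Counts of members past 1.5-fold kept their value under normexp with loess, median centring, the deposited table, both channels required, no filter, and 1.5-fold with an error-model p under 0.01. With a 2-fold cutoff the count of higher members in MKN45 went from 1 to 0. Before dye normalization, an alternative added after seeing the data, the count of higher members went from 0 to 1 in MKN74. There the count of members with a higher ratio in MKN45 went from 9 to 4, with a median difference of -0.05 in place of 0.19. The shares of all probes were not computed on that scale, and the cause was not tested. Median ratios lay between 0.10 and 0.12 (MKN74) and between 0.20 and 0.25 (MKN45). Limma called 3 of 9 members after normexp and loess, beside 1708 of all 19595 probes. Under the other settings it called 0 members, beside 2 probes in all where both channels were required and 0 elsewhere. At an unadjusted p under 0.05 by limma there were 3 members where both channels were required, beside 2867 of 17362 probes. With the deposited log2 ratios there were 2 members, beside 2510 of 17384 probes. Member probes at least 2-fold lower in MKN45 numbered 8 in the control channel under every scaling and 9 in Cy5. Those at least 2-fold higher numbered 2, or 1 with background-subtracted signals, where MT1M had no positive value in MKN74. The median level difference was -3.64 when scaled to the median probe and -2.97 in Cy5. Marker lists were left out of the next counts. Probes of the 5 metal, glucocorticoid and 16q13 lists and of other metallothionein entries past 1.5-fold numbered 3 in MKN74 and 2 in MKN45. Over all kept probes 3.78% were higher and 1.76% lower in MKN74, and 4.81% and 1.97% in MKN45. Both after normexp and loess and with both channels required the counts were 1 and 0. No share of all probes was computed for those settings, so the fall is not read as a result about the lists. Dim probes (MT1G, and MT1M and MT1H downstream in MKN74) have bounds or no value.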
